A study of Mus musculus with 8 samples.

Results

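The genes described here are 6 receptors and signalling parts through which macrophages sense immunoglobulin G (IgG): the activating Fc gamma receptors Fcgr1, Fcgr3 and Fcgr4, the inhibitory receptor Fcgr2b, the shared signalling chain Fcer1g and the IgG transport receptor Fcgrt. They were chosen by gene symbol from the 20258 named RefSeq rows of the deposited table, and each of the 6 symbols matched 1 row. All 6 stood above 0 in each of the 8 libraries, so none was lost to a filter on low values. The cells were bone-marrow derived macrophages, grown from marrow of C57BL/6 mice. They were left unstimulated (2 libraries), given IL4 (3 libraries) or given LPS and IFNg together (3 libraries) for 24 h. IL4 is a type 2 cytokine used to model alternative activation. LPS, a bacterial cell wall component, and the cytokine IFNg are used together to model classical activation. The cells came from culture, and the labels name no antibody complex or infection among the conditions compared.

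Activating Fc gamma receptors bind the constant part of IgG and signal through the gamma chain encoded by Fcer1g, which carries the immunoreceptor tyrosine-based activation motif (ITAM) and is also needed to bring these receptors to the cell surface in mice. Fcgr2b binds the same IgG complexes but carries an inhibitory motif in its own tail, so the balance between it and the activating receptors sets how strongly a macrophage answers antibody-coated targets. Fcgrt, also called FcRn, is a relative of MHC class I that pairs with B2m and returns IgG from endosomes to the cell surface rather than starting phagocytosis.

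Expression is on the log2 scale of the authors' quantile-normalised table from 3' end sequencing, where 1 unit is a doubling. Such values carry no sequencing depth. Between 9967 and 11837 genes per library stood above 0, with both unstimulated libraries at the upper end. Another 8219 to 10210 stood at exactly 0 and 74 to 202 below 0, and how these 0s were set is not stated. A log2 difference that involves a 0 is therefore not read as a number of doublings. Whether replicates are separate mice or cultures is not stated in the labels; the tests therefore rest on the spread between libraries, which may be technical. The stimuli showed in their usual targets: Arg1 was higher with IL4 (log2 difference 10.33, limma adjusted p = 0.000335) and Cxcl9 with LPS plus IFNg (11.93, adjusted p = 7.38e-05). Arg1 also rose with LPS plus IFNg, by less (4.40, limma adjusted p = 0.00287). Of 14 macrophage markers none was at 0 in every library, and their summed level on the log2 scale was 15.02 to 15.17 without stimulus, 14.34 to 14.83 with IL4 and 14.17 to 14.25 with LPS plus IFNg. Against no stimulus 6 were called lower and none higher with IL4 (median -1.04), beside 0.793% and 0.514% of all genes. With LPS plus IFNg 8 were lower and 1 higher (median -1.12), beside 4.25% and 3.72%. With values scaled to equal means of 11 housekeeping genes, 3 were lower with IL4, and 1 lower and 2 higher with LPS plus IFNg. Of 10 T and NK cell markers 7 were at 0 in every library.

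The promoters of Fcgr1, Fcgr4 and Fcgr2b are shown because these were the receptor genes that passed the test in a comparison with no stimulus, described next. Each sequence is the 250 bases before the RefSeq transcription start, from RefSeq on GRCm38.p6, read 5' to 3' on the gene's strand. The Fcgr1 window is chr3:96293970-96294219 on the minus strand, the Fcgr4 window chr1:171018676-171018925 on the plus strand and the Fcgr2b window chr1:170976072-170976321 on the minus strand. Capitals mark matches, on either strand, to 4 patterns: TTCNNNGAA (the gamma-activated site), TTCNNNNGAA (the spacing STAT6 prefers), GAAANNGAAA (an interferon-stimulated response element) and GAGGAA (a core bound by PU.1, the myeloid master factor).
Fcgr1: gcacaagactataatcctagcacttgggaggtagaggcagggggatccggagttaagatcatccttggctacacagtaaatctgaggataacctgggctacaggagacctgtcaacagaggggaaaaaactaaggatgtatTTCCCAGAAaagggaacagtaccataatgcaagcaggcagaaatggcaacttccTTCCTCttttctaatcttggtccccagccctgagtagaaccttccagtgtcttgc
Fcgr4: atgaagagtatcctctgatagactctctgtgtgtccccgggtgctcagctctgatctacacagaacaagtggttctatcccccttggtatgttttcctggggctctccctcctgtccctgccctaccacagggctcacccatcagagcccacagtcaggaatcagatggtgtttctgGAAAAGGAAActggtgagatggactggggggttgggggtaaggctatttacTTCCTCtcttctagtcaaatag
Fcgr2b: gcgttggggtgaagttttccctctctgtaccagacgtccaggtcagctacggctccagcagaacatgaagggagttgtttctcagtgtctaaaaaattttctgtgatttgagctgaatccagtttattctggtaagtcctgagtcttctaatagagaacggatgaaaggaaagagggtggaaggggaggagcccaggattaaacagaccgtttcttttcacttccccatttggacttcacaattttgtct
In Fcgr1 the letters TTCCCAGAA lay 109 to 101 bases before the start and match the gamma-activated site on both strands, since that pattern reads the same both ways. The Fcgr1 window also held the PU.1 core, 55 to 50 bases before the start. In Fcgr4 the letters GAAAAGGAAA, a match to the interferon-stimulated response element, lay 73 to 64 bases before the start, and the PU.1 core 22 to 17 bases before it. The Fcgr2b window matched none of the 4 patterns, nor did those of Fcer1g and Fcgrt. Both Fcgr3 windows, which overlap, matched the PU.1 core alone. No marked matches overlap one another within a window apart from that palindrome. Among 32851 windows of 250 bases before RefSeq starts, 7.02% held the gamma-activated site, 5.85% the STAT6 spacing, 2.98% the response element and 23.3% the PU.1 core. A match is a string of letters and was not tested for binding.

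Fcgr1 encodes the high-affinity IgG receptor CD64. It was at 6.74 and 7.37 in the unstimulated libraries, at 2.60, 3.52 and 4.62 with IL4, and at 10.13, 9.70 and 9.85 with LPS plus IFNg. The 3 groups did not overlap: LPS plus IFNg libraries were highest, unstimulated ones between, and IL4 ones lowest and most spread. In bulk RNA fewer cells that express a gene and less RNA per cell cannot be told apart. In limma with Benjamini-Hochberg adjustment over 13615 genes, Fcgr1 rose by 2.83 with LPS plus IFNg against no stimulus (SE 0.57, 7.13-fold, adjusted p = 0.0259). It fell with IL4 (log2 difference -3.48, SE 0.57, 11.1-fold lower, adjusted p = 0.0392). With a block for the replicate number Fcgr1 passed in neither of these comparisons (adjusted p = 0.128 for the fall). Between the stimuli it was 6.31 higher with LPS plus IFNg (SE 0.51, adjusted p = 0.000497), or 79.4-fold with a 95% interval of 34.7 to 181.4. The difference between the stimuli passed whichever library was left out (adjusted p up to 0.00651). The fall with IL4 passed without IL4 replicate 3 (adjusted p = 0.0262) but not without unstimulated replicate 1 or 2 (0.107 and 0.199), IL4 replicate 1 or 2 (0.0552 and 0.0927) or LPS plus IFNg replicate 1, 2 or 3 (0.0950, 0.106 and 0.102), nor with no intensity trend (0.0569) or with the compared pair of groups alone (0.233). The rise with LPS plus IFNg passed without any 1 IL4 library but not without unstimulated replicate 1 or 2 (0.182 and 0.123) or LPS plus IFNg replicate 1, 2 or 3 (0.0970, 0.0898 and 0.0909).

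Fcgr4, the mouse counterpart of human CD16A, binds IgG2a and IgG2b with intermediate affinity and needs the gamma chain. Its values were 4.91 and 4.19 without stimulus, 4.74, 2.33 and 4.12 with IL4, and 8.57, 8.56 and 8.26 with LPS plus IFNg. Every LPS plus IFNg library lay far above the other 5, among which unstimulated and IL4 libraries overlapped. Fcgr4 rose by 3.92 with LPS plus IFNg (SE 0.72, 15.1-fold, limma adjusted p = 0.0187) and was 4.74 above its level with IL4 (SE 0.65, 26.6-fold, 95% interval 9.29 to 76.4, adjusted p = 0.00385). With IL4 against no stimulus the difference was -0.82 with a 95% interval of -2.52 to 0.88 (adjusted p = 0.722), and -0.11 without IL4 replicate 2, the library with the lowest value. The difference between the stimuli passed whichever library was left out (adjusted p up to 0.0273). The rise over no stimulus did not pass without unstimulated replicate 1 or 2 (0.0850 and 0.145) or LPS plus IFNg replicate 1, 2 or 3 (0.0736, 0.0823 and 0.0664). Neutrophils also carry Fcgr4 and Fcgr3. Of 11 neutrophil and precursor markers in the table none was at 0 in every library. Their summed log2 level was 11.26 to 11.45 without stimulus, 10.16 to 10.90 with IL4 and 8.77 to 9.08 with LPS plus IFNg. None was called with IL4, beside 1.31% of all genes. With LPS plus IFNg against no stimulus 4 were lower and none higher (median log2 difference -3.22), beside 4.25% and 3.72%. S100a9 had means of 10.22, 9.23 and 6.75 without stimulus, with IL4 and with LPS plus IFNg. Csf3r was highest with LPS plus IFNg, with means of 7.01, 6.32 and 7.65 in that order (limma adjusted p = 0.573 against no stimulus). The part of such cells in these values was not tested.

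Fcgr3 encodes the low-affinity activating receptor CD16. It was at 10.43 and 9.93 without stimulus, 9.65, 8.88 and 9.33 with IL4, and 10.12, 9.48 and 9.54 with LPS plus IFNg. The IL4 libraries lay below both unstimulated ones, while LPS plus IFNg libraries overlapped both other groups. No comparison passed: the log2 difference was -0.89 with IL4 (95% interval -1.62 to -0.16, adjusted p = 0.296), -0.46 with LPS plus IFNg (-1.19 to 0.27, adjusted p = 0.493) and 0.43 between the stimuli (-0.22 to 1.08, adjusted p = 0.415). With equal housekeeping means the LPS plus IFNg difference was 0.09, so its sign is not set. Fcgr2b and Fcgr3 are close copies in the part that binds IgG, and the sources used here do not say how reads with several matches were counted.

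Fcgr2b, the inhibitory receptor CD32B, was the member that rose with IL4. It stood at 9.15 and 9.04 without stimulus, 10.67, 10.54 and 10.88 with IL4, and 9.51, 9.26 and 9.23 with LPS plus IFNg. The 3 IL4 libraries lay more than 1 log2 unit above all others. The rise with IL4 was 1.60 (SE 0.18, 3.04-fold, 95% interval 2.26 to 4.08, limma adjusted p = 0.0136). It passed whichever IL4 or LPS plus IFNg library was left out (up to 0.0359), and was 1.66 and 1.55 without unstimulated replicate 1 or 2. The rise did not pass with the compared pair of groups alone in the fit (0.0563) or with a block for the replicate number (0.114). With LPS plus IFNg the level was 1.36 lower than with IL4 (log2 difference -1.36, SE 0.16, adjusted p = 0.00222) and 0.24 above no stimulus (95% interval -0.18 to 0.67, adjusted p = 0.554), a small gap in which the libraries still did not overlap; with equal housekeeping means it was 0.79 (adjusted p = 0.0681). B cells also carry Fcgr2b. Of 7 B cell markers Pax5 was at 0 in every library, and the summed log2 level of the list was 3.70 to 3.95 without stimulus, 0 to 5.31 with IL4 and 1.47 to 4.69 with LPS plus IFNg. Of 8 dendritic cell markers none was at 0 in every library. None passed with IL4 against no stimulus (median log2 difference 0.12), beside 1.31% of all genes called. Between the stimuli 1 was higher (Ccr7) and 2 lower (Itgax and Zbtb46) with LPS plus IFNg, beside 5.91% and 6.96% of all genes. The summed log2 level of the 8 markers was 10.01 to 10.52 with IL4, 8.54 to 8.78 without stimulus and 6.69 to 7.64 with LPS plus IFNg. The most abundant of them was Itgax, which macrophages express too, with means of 8.55, 10.14 and 6.64 without stimulus, with IL4 and with LPS plus IFNg. Zbtb46, a factor of conventional dendritic cells, had means of 1.22, 4.50 and 0 in that order, with every LPS plus IFNg library at 0. It was lower with LPS plus IFNg than with IL4 (log2 difference -4.50, adjusted p = 0.00995). Ccr7 went the other way, with means of 0, 0 and 4.62 (adjusted p = 0.00296 between the stimuli). The other 5 did not pass between the stimuli. Xcr1 (2.05) and Clec9a (2.73) had their highest means with LPS plus IFNg, Siglech (3.36) with IL4 and Flt3 (2.46) without stimulus. Cd209a means were 0, 0 and -0.02. The part of dendritic cells in the Fcgr2b values was not tested.

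Fcer1g, the gamma chain, was at 11.62 and 11.91 without stimulus, 10.69, 10.78 and 10.94 with IL4, and 11.69, 11.61 and 11.70 with LPS plus IFNg. The IL4 libraries formed a separate low group, and the unstimulated and LPS plus IFNg libraries overlapped. Between the stimuli Fcer1g was 0.86 higher with LPS plus IFNg (SE 0.16, 1.82-fold, limma adjusted p = 0.0126), which passed whichever library was left out (up to 0.0393) but not with no intensity trend (0.0554). IL4 against no stimulus gave -0.96 (95% interval -1.38 to -0.55, adjusted p = 0.0579), which did not pass, but did without unstimulated replicate 1 (0.0253). LPS plus IFNg against no stimulus gave -0.10 (95% interval -0.52 to 0.32, adjusted p = 0.834), and 0.45 with equal housekeeping means. Mast cells and basophils also carry this chain. Of 8 of their markers Fcer1a and Cma1 were at 0 in every library, and the summed log2 level was 4.28 to 4.65 without stimulus, 4.73 to 5.56 with IL4 and 0 to 4.55 with LPS plus IFNg; the part of such cells was not tested.

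Fcgrt was at 6.96 and 7.16 without stimulus, 6.98, 4.48 and 6.44 with IL4, and 6.06, 4.02 and 3.88 with LPS plus IFNg. Both stimulated groups were widely spread (SD 1.32 and 1.22, n = 3 each) beside the unstimulated pair (SD 0.14, n = 2). All LPS plus IFNg libraries lay below the unstimulated ones (log2 difference -2.40, 95% interval -4.58 to -0.22, adjusted p = 0.207). The IL4 difference was -1.09 (adjusted p = 0.719) and the difference between the stimuli -1.31 (adjusted p = 0.401), so no comparison passed. B2m, its partner chain and also that of MHC class I, had means of 12.75 ± 0.18 (SD, n = 2) without stimulus, 11.83 ± 0.07 (n = 3) with IL4 and 13.67 ± 0.41 (n = 3) with LPS plus IFNg, and rose by 1.84 between the stimuli (adjusted p = 0.00354).

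**Figure D1:**
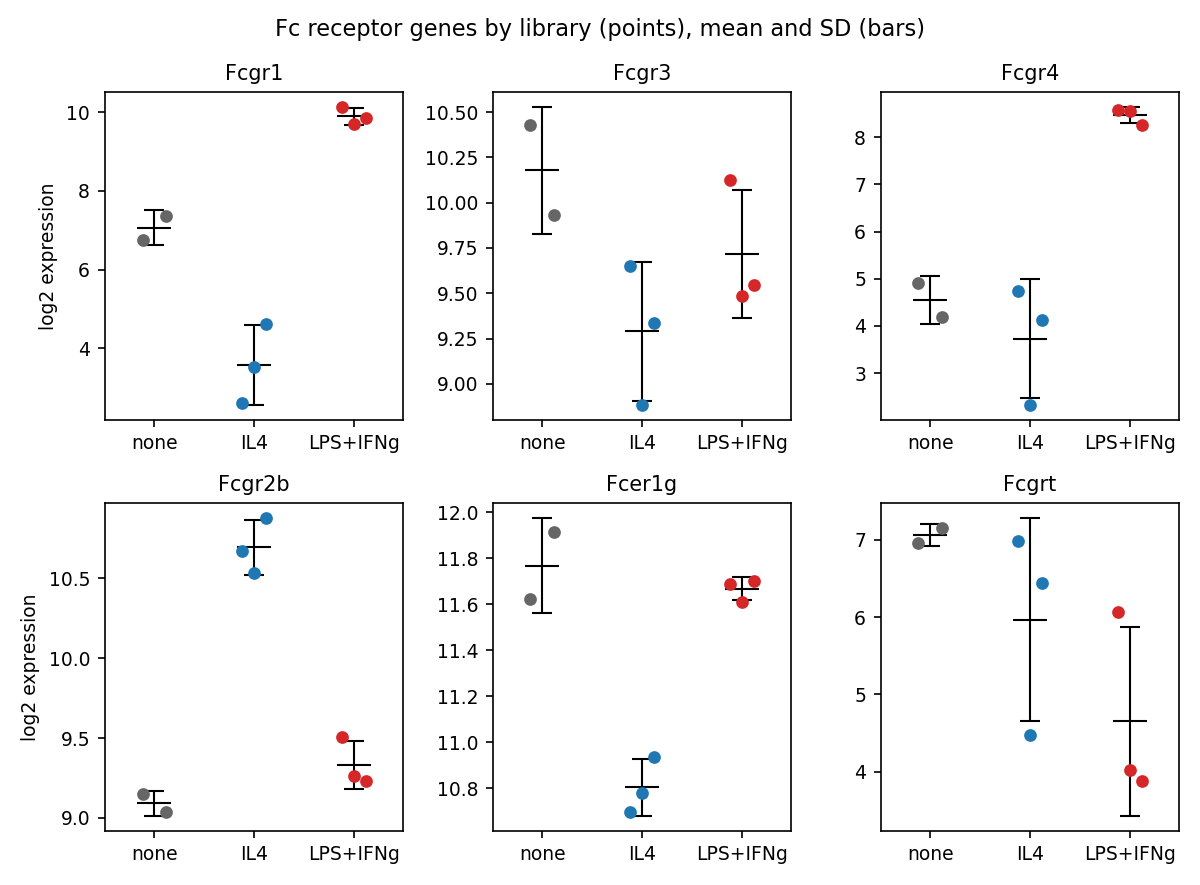
Log2 expression (vertical axis, scaled per gene) of the 6 genes in the 2 unstimulated, 3 IL4 and 3 LPS plus IFNg libraries (points), with the mean and SD of each group (bars). Fcgr1 separates all 3 groups, Fcgr4 sets LPS plus IFNg apart, and Fcgr2b and Fcer1g set IL4 apart, in opposite directions.

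Counted over the family, IL4 against no stimulus gave 1 member higher (Fcgr2b), 1 lower (Fcgr1) and 4 not past the threshold. Over all tested genes 0.514% were higher and 0.793% lower in that comparison (1.31% called in all). LPS plus IFNg against no stimulus gave 2 higher (Fcgr1 and Fcgr4), none lower and 4 not past it, beside 3.72% of all genes higher and 4.25% lower (7.97% called). LPS plus IFNg against IL4 gave 3 higher (Fcgr1, Fcgr4 and Fcer1g), 1 lower (Fcgr2b) and 2 not past it, beside 5.91% and 6.96% (12.9% called). The 6 genes are few and were chosen with earlier results known. Libraries of the compared groups did not overlap for 4 members in each comparison. With IL4 these were 1 higher and 3 lower, where 26.5% of all genes did not overlap (11.7% higher, 14.7% lower). With LPS plus IFNg against no stimulus they were 3 higher and 1 lower (36.7% of all genes, 16.1% and 20.7%), and between the stimuli 3 higher and 1 lower (27.1%, 12.4% and 14.8%). Their median log2 difference was -0.93 for IL4, 0.07 for LPS plus IFNg and 0.65 between the stimuli, where the medians of all genes were -0.01, -0.04 and 0. The comparisons with no stimulus share the same 2 libraries, so they are not independent. The 4 calls between the stimuli were also made with equal housekeeping means, which moved the median of all genes to 0.35 in that comparison and to 0.37 in LPS plus IFNg against no stimulus.

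**Figure D2:**
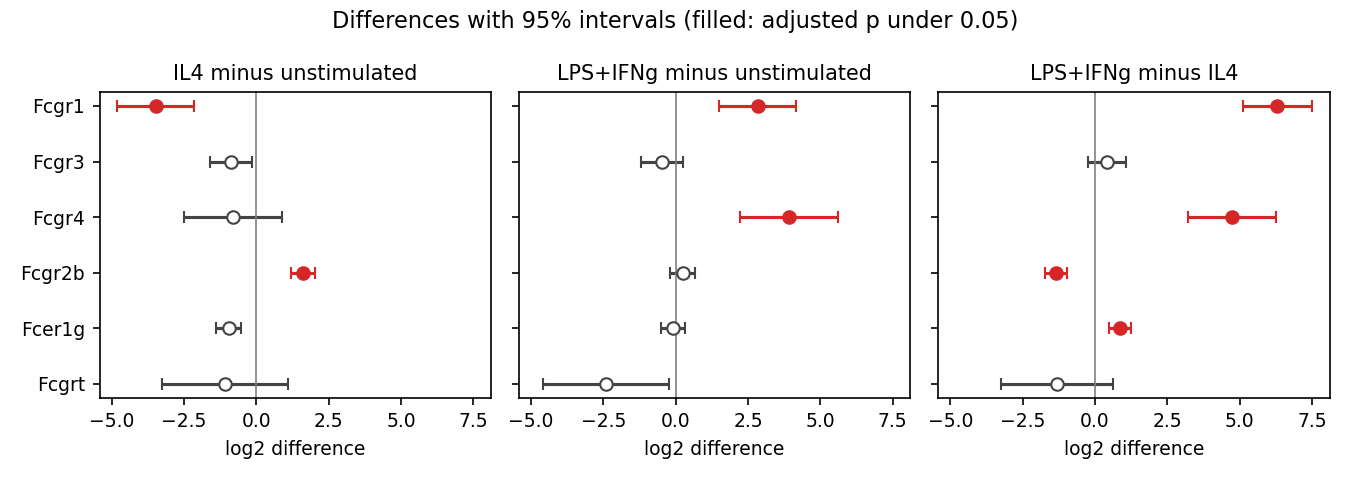
Log2 difference (horizontal axis) of each gene in the 3 comparisons, with 95% intervals from limma; filled points passed an adjusted p of 0.05. Fcgr1 moves to opposite sides of 0 with the stimuli, at -3.48 and 2.83, and Fcgr2b moves right with IL4, at 1.60.

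The balance of activating to inhibitory receptor was measured as a difference of log2 values within each library, which a shift of the whole library cannot move. A difference of 0 does not mean equal numbers of transcripts, since levels of different genes are not on 1 scale, so only changes between groups are read. Fcgr1 minus Fcgr2b was -2.40 and -1.66 without stimulus, -8.07, -7.02 and -6.26 with IL4, and 0.63, 0.43 and 0.62 with LPS plus IFNg. The groups stood apart, with changes of -5.08 with IL4 and 2.59 with LPS plus IFNg against no stimulus. Fcgr4 minus Fcgr2b went from -4.54 ± 0.43 (SD, n = 2) to -6.96 ± 1.15 with IL4 (n = 3) and -0.87 ± 0.14 with LPS plus IFNg (n = 3). Fcgr3 minus Fcgr2b, a pair in which neither gene passed with LPS plus IFNg, went from 1.09 ± 0.27 (n = 2) to -1.41 ± 0.34 with IL4 (n = 3) and 0.38 ± 0.21 with LPS plus IFNg (n = 3). For the gamma chain, Fcer1g minus Fcgr2b was 2.68 ± 0.29 (n = 2), 0.11 ± 0.12 (n = 3) and 2.33 ± 0.15 (n = 3). With IL4 all 4 differences were lower than without stimulus, with changes of -5.08 to -2.42 and no overlap of libraries. Fcgr2b itself rose, and 70.7% of all other genes were also lower relative to it without overlap in that comparison, while 1.4% were higher. With LPS plus IFNg the changes went both ways: 2.59 for Fcgr1 and 3.68 for Fcgr4 (11.9% of genes were higher without overlap), but -0.70 for Fcgr3 and -0.34 for Fcer1g (35.4% of genes were lower). Between the stimuli all 4 were higher with LPS plus IFNg, by 1.79 to 7.67, where 53.7% of genes were higher and 3.09% lower without overlap. Exact two-sided permutation tests gave p = 0.2 against no stimulus and p = 0.1 between the stimuli for each of the 12 differences, the smallest these library numbers allow, and an adjusted p = 0.2 throughout.

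**Figure D3:**
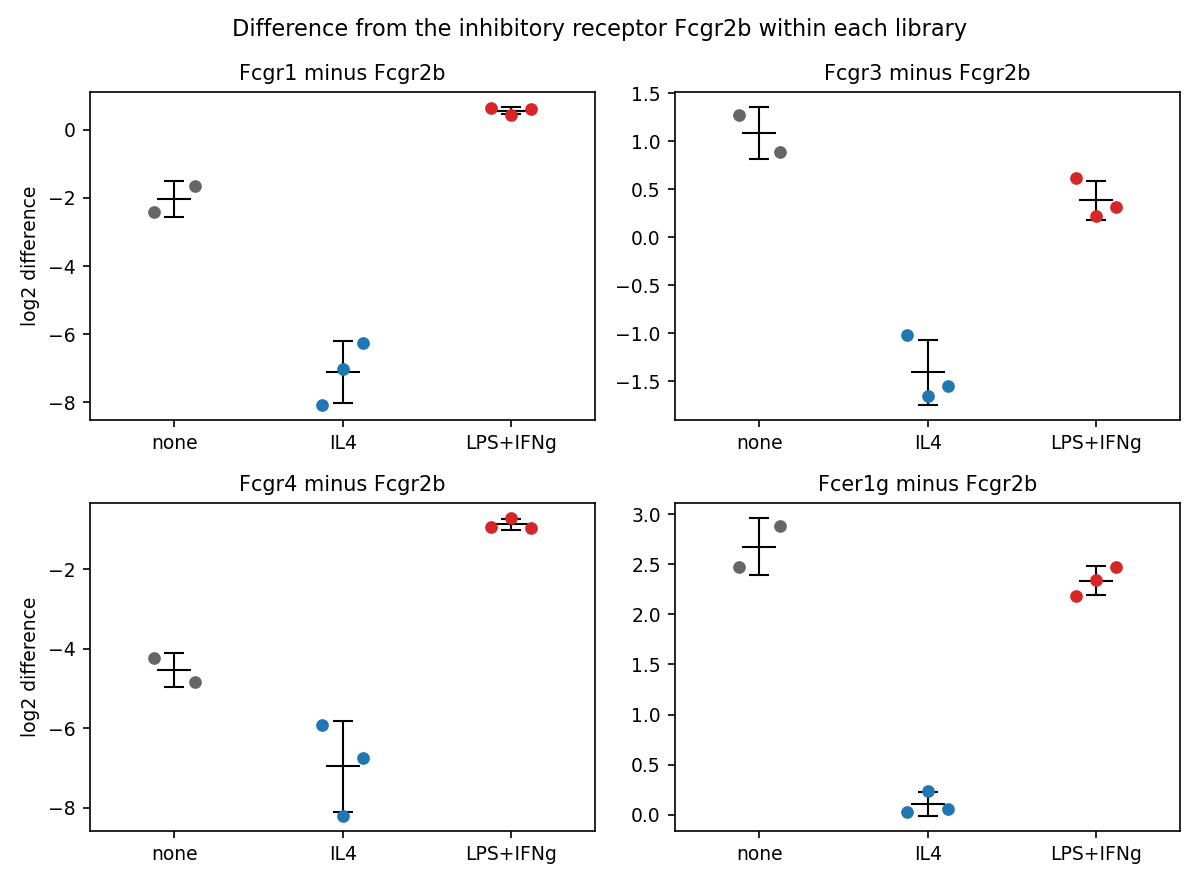
Log2 value of each activating receptor and of the gamma chain Fcer1g minus that of the inhibitory receptor Fcgr2b in the same library (points), with mean and SD per group (bars). The IL4 libraries are lowest in all 4 panels, and LPS plus IFNg libraries are highest for Fcgr1 and Fcgr4 but not for Fcgr3 and Fcer1g.

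The genes through which an engaged Fc receptor works were read from lists. Of all tested genes 1.31% were called with IL4 (0.514% higher, 0.793% lower), 7.97% with LPS plus IFNg against no stimulus (3.72% and 4.25%) and 12.9% between the stimuli (5.91% and 6.96%). Of 16 tested kinases and phospholipases, 2 rose with IL4, 2 rose with LPS plus IFNg, and none fell with either stimulus against no stimulus. Between the stimuli 1 was higher and 2 were lower with LPS plus IFNg. With equal housekeeping means 3 rose with LPS plus IFNg, and 2 were higher and 1 lower between the stimuli. The list medians were 0.06, -0.11 (0.33 with equal housekeeping means) and 0.16. Fyn, a Src-family kinase, was at 10.19 ± 0.18 (n = 3) with IL4 against 8.27 ± 0.20 (n = 2) without stimulus, and rose by 1.92 (SE 0.21, adjusted p = 0.0134). Prkcd, a protein kinase C, rose by 2.09 with IL4 (SE 0.23, adjusted p = 0.0134). Both were lower with LPS plus IFNg than with IL4, Fyn by a log2 difference of -2.44 (adjusted p = 0.000404) and Prkcd by -1.34 (adjusted p = 0.00616, and 0.0503 with equal housekeeping means). Src rose by 2.26 with LPS plus IFNg (adjusted p = 0.0144, not passed without unstimulated replicate 2 or LPS plus IFNg replicate 2, up to 0.0791). Lyn, the kinase with the highest level of this list that did not pass, had means of 10.52, 10.04 and 10.30 without stimulus, with IL4 and with LPS plus IFNg. The kinase that docks on the ITAM was not analysed here.

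Of 14 adaptors and exchange factors none passed with IL4, 2 rose with LPS plus IFNg, and 3 were higher with LPS plus IFNg than with IL4, beside 3.72% and 5.91% of all genes higher. With equal housekeeping means 4 rose with LPS plus IFNg and 4 were higher between the stimuli. The list medians were 0.01, 0.39 and -0.28, and with equal housekeeping means 0.07, 0.94 and 0.22. Lcp2, the scaffold SLP-76, rose by 1.57 with LPS plus IFNg (SE 0.19, adjusted p = 0.00414) and was 1.11 above its IL4 level (adjusted p = 0.00615). Malt1 rose by 2.05 (adjusted p = 0.0133), but did not pass without unstimulated replicate 2 or any 1 LPS plus IFNg library (up to 0.126). Vav1, which activates Rac at the phagocytic cup, was at 9.17 ± 0.18 with LPS plus IFNg and 7.62 ± 0.05 with IL4 (n = 3 each), a difference of 1.55 (SE 0.19, adjusted p = 0.00264). Grb2, the member with the highest level, did not pass between the stimuli (-0.43, adjusted p = 0.482).

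Inhibitors moved in both directions. Of 13, 1 rose and 1 fell with IL4, 1 fell with LPS plus IFNg, and between the stimuli 3 were higher and 2 lower with LPS plus IFNg (medians -0.30, 0.21 and 0.63), beside 1.31%, 7.97% and 12.9% of all genes called. With equal housekeeping means 4 rose and 1 fell with LPS plus IFNg, and 5 were higher and 2 lower between the stimuli. Inpp5d, the phosphatase SHIP1 that Fcgr2b recruits, was at 7.93 ± 0.06 with IL4 (n = 3), 9.11 ± 0.05 without stimulus (n = 2), and 8.79, 8.95 and 9.25 in the LPS plus IFNg libraries. It was therefore lowest in the group where its receptor was highest. Between the stimuli it was 1.06 higher with LPS plus IFNg (adjusted p = 0.00774), and its fall with IL4 (-1.17, adjusted p = 0.0396) did not pass without either unstimulated library, LPS plus IFNg replicate 2 or any 1 of the IL4 libraries (0.0784 at most). Cblb, a ubiquitin ligase that restrains Src-family and ITAM signalling, rose by 1.38 with IL4 (adjusted p = 0.0272, up to 0.0626 without unstimulated replicate 1 or IL4 replicate 2 or 3) and fell from 8.51 ± 0.12 (n = 2) to 7.01 ± 0.17 (n = 3) with LPS plus IFNg (adjusted p = 0.00593). Dok2 was lower with LPS plus IFNg than with IL4 (log2 difference -3.07, adjusted p = 0.0101), and the related Dok1 was 1.30 higher (adjusted p = 0.0124). Ubash3b, at means of 9.65, 10.84 and 10.84, did not pass in any comparison.

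Of 20 genes of actin assembly and the phagocytic cup, 1 rose with IL4, 1 rose and 2 fell with LPS plus IFNg, and between the stimuli 3 were higher and 5 lower, beside 1.31%, 7.97% and 12.9% of all genes called. With equal housekeeping means 3 rose and 1 fell with LPS plus IFNg, and 6 were higher and 2 lower between the stimuli. The medians were -0.15, -0.23 (0.32 with equal housekeeping means) and 0.07. Myo10, an unconventional myosin of filopodia and phagocytic cups, rose by 2.26 with LPS plus IFNg (adjusted p = 0.0103, up to 0.107 without unstimulated replicate 2 or LPS plus IFNg replicate 2) and stood 2.78 above its IL4 level (adjusted p = 0.00195). Myo1e, another cup myosin, ran the other way and was lower with LPS plus IFNg than with IL4 (log2 difference -1.94, adjusted p = 0.000964). Its rise with IL4 (1.26, adjusted p = 0.0405) passed without unstimulated replicate 1 but not with any other library left out (up to 0.0934). Gsn, the actin-severing gelsolin, fell by 2.29 with LPS plus IFNg (adjusted p = 0.00454). Arpc5, a subunit of the actin-branching Arp2/3 complex, had means of 13.26, 13.50 and 13.24 and did not pass.

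Other myeloid receptors use Fcer1g or the related ITAM chain Tyrobp, or are paired with receptors that do. Of 15 tested, 1 fell with IL4, 2 rose and 4 fell with LPS plus IFNg, and between the stimuli 5 were higher and 5 lower, or 5 and 2 with equal housekeeping means (medians -0.65, 0.79 and 2.16). Of all genes 1.31%, 7.97% and 12.9% were called in these comparisons. Clec4e, the lectin Mincle that signals through Fcer1g, was at 10.70 ± 0.03 with LPS plus IFNg (n = 3), 2.88 ± 1.85 without stimulus (n = 2) and 1.04 ± 1.80 with IL4 (n = 3). It rose by 7.82 (adjusted p = 0.00776, and 0.0756 without unstimulated replicate 2). Its partner lectin Clec4d had means of 10.35, 7.49 and 10.67 without stimulus, with IL4 and with LPS plus IFNg. Clec4d fell by 2.86 with IL4 (SE 0.24, adjusted p = 0.00718) and, as for Fcer1g, its 3 IL4 libraries lay below all others. Tyrobp had means of 10.08, 9.30 and 8.37 and fell by 1.71 with LPS plus IFNg (adjusted p = 0.00608), a comparison in which Fcer1g did not pass. Cd300lf rose by 4.55 and Cd300lb fell by 2.76 with LPS plus IFNg (adjusted p = 0.00179 and 0.000594). Lilrb4, at means of 10.75, 10.96 and 11.05, did not pass.

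Over all genes, 1.31% were called with IL4 and 7.97% with LPS plus IFNg against no stimulus. Between the stimuli 5.91% were higher and 6.96% lower. Of 8 other tested genes of the Fc receptor group, none passed against no stimulus, 1 was higher with LPS plus IFNg than with IL4 (B2m) and 1 lower. The lower one was Fcrls, a scavenger-like relative of the Fc receptors. Its means were 4.24 ± 0.07 (n = 2) without stimulus, 7.34 ± 0.76 (n = 3) with IL4 and 1.18 ± 2.04 (n = 3) with LPS plus IFNg. The log2 difference between the stimuli was -6.16 (adjusted p = 0.0104), with LPS plus IFNg libraries at 0, 0 and 3.53. Trim21, the cytosolic IgG receptor, had a difference of 3.94 between the stimuli and did not pass (adjusted p = 0.0705). It passed there with equal housekeeping means (4.42, adjusted p = 0.0423). With that scaling 2 of the 8 genes were higher and 1 lower between the stimuli. B2m was then also higher with LPS plus IFNg than without stimulus (1.47, adjusted p = 0.0226). Fcer1a, the IgE-binding chain that makes Fcer1g part of the mast cell IgE receptor, was at 0 in every library.

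The genes with the most similar pattern were sought by the root mean square difference of mean-centred log2 values over the 8 libraries, among 8140 genes above 0 in all of them. For Fcgr1 these were Ms4a6c (0.35), Irf7 (0.71) and Gm12250 (0.78). Ms4a6c encodes a membrane protein of the MS4A family, with means of 9.69, 6.14 and 11.83 without stimulus, with IL4 and with LPS plus IFNg. Irf7, an interferon regulatory factor, had means of 7.13, 4.18 and 11.22. For Fcgr4 they were Herc6 (0.48), Xaf1 (0.54) and Procr (0.56), of which Herc6 is an interferon-inducible ubiquitin ligase with means of 6.63, 5.96 and 10.49. For Fcgr2b they were Ap2m1 (0.18), Timm10 (0.20) and Cpox (0.23). Timm10, a chaperone of mitochondrial import, had means of 5.18, 6.48 and 5.51. Within the family Fcgr1 and Fcgr4 were each other's nearest, at 1.42, and Fcgr3 and Fcer1g at 0.39. A smaller spread over libraries gives a smaller value by itself, so values of different members are not compared.

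**Figure D4:**
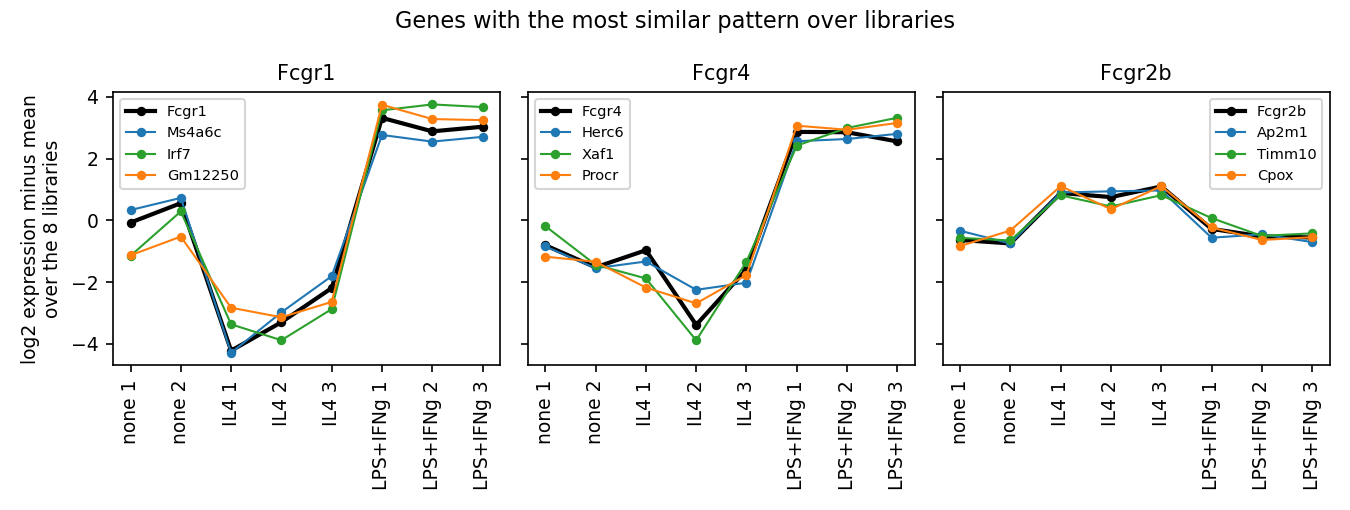
Log2 expression minus the mean over the 8 libraries (vertical axis) for Fcgr1, Fcgr4 and Fcgr2b (black) and the 3 genes closest to each (colours), by library; lines only join the points of 1 gene. Fcgr1 and its neighbours dip in the 3 IL4 libraries and peak in the 3 LPS plus IFNg ones, Fcgr4 with its neighbours peaks in the latter, and Fcgr2b with its neighbours peaks with IL4.

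Among factors known at Fc receptor genes, Irf8, a myeloid interferon regulatory factor, had the same order of group means as Fcgr1. They were 8.79 with IL4, 10.04 without stimulus and 11.02 with LPS plus IFNg. It passed between the stimuli (2.23, SE 0.24, adjusted p = 0.00144) but in neither comparison with no stimulus (adjusted p = 0.0892 and 0.0757). With equal housekeeping means Irf8 did pass with LPS plus IFNg against no stimulus (1.53, adjusted p = 0.0254). Sfpi1, which encodes PU.1, did not pass in any comparison (adjusted p from 0.573 to 0.713), with means of 8.82, 9.28 and 9.06 without stimulus, with IL4 and with LPS plus IFNg. Stat6 did not pass either (adjusted p from 0.236 to 0.990). Cebpb rose with LPS plus IFNg by 1.53 (adjusted p = 0.0307, up to 0.196 without unstimulated replicate 1 or 2, IL4 replicate 3 or any 1 LPS plus IFNg library), while Cebpa fell by 1.65 (adjusted p = 0.0133, up to 0.0694 without either unstimulated library, and 0.0605 with equal housekeeping means).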

How the data were processed

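Bone-marrow derived macrophages were kept for 24 h with no stimulus, IL4, or LPS and IFNg, and 3' end libraries were made from polyadenylated RNA, per the labels' protocols. The authors' table holds log2 values for RefSeq transcripts, which its name gives as quantile normalised. TopHat and mouse build mm9 are named, per the submitters' processing notes; the sources used here name no counting tool. Columns were matched to samples by barcode. 1 of 20259 rows had no symbol and was left out, and 6643 genes with 1 same value in every library were not tested. Group means over all 8 libraries were fitted with limma 3.58.1 under R 4.3.3 (5 residual and 2.31 prior degrees of freedom, intensity trend), two-sided, with Benjamini-Hochberg adjustment over 13615 genes and a threshold of 0.05. Intervals are 95% and unadjusted. The fit was tested on simulated data. Within-library differences used exact permutation tests in Python 3.11.15.

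Members and lists were chosen with earlier results of these data known. Named genes were the members, up to 3 called genes per list and comparison with the largest change and the uncalled gene with the highest mean, the control genes, and the 3 closest genes per member; not all are described, and some genes are not reported here. Alternatives were no intensity trend, the 2 groups compared alone, the lowest 0.25 of genes left out, values damped by adding 1 before the log, scaling to 11 housekeeping genes, equal medians, a block for the replicate number, and leaving out each library. Depth is unknown, so no counting interval is given.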

Additional observations from a re-analysis of the deposited data

How the results depend on the processing

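Between the stimuli, the counts of called members (3 or 4) and of all called genes stayed within 1.5 times under all 15 alternatives, and no member reversed. Of 90 member values with LPS plus IFNg against no stimulus, 3 reversed, none of them called: Fcgr3 (0.0851) and Fcer1g (0.4456) with equal housekeeping means, and Fcer1g (0.0457) without unstimulated replicate 2, within -0.2477 to 0.0457 over the libraries left out. Against no stimulus the calls of members were fewer under some settings. With IL4, 2 members were called, 1 with no intensity trend, 0 with only the 2 groups compared, and 1 to 2 with a library left out. With LPS plus IFNg, 2 were called, and 0 to 2 with a library left out. All genes called numbered 178 for IL4, 70 with the 2 groups alone and 105 to 412 with a library left out, and 1085 for LPS plus IFNg, 701 to 1112 with a library left out. Where 1 unstimulated library was left out, the other was assumed to vary like the other groups. Equal housekeeping means put 73.1% of calls higher in place of 46.6% for LPS plus IFNg against no stimulus, and 71.8% in place of 45.9% between the stimuli. The 76 alternatives for differences from Fcgr2b kept their direction. Causes were not tested, beyond fewer libraries or groups in a fit.

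No pairing of libraries by replicate number was seen. Across 7283 genes, deviations from group means correlated at -0.08 to 0.07 for libraries with the same number and -0.07 to 0.08 otherwise. Not every library correlated best with its own number. Deviations within a group sum to 0, so these correlations depend on one another and the check cannot exclude a pairing. With the replicate block 8 genes were called for IL4 and 511 for LPS plus IFNg against no stimulus, and 0 members in each. Neither Fcgr1 and Fcgr2b with IL4 nor Fcgr1 and Fcgr4 with LPS plus IFNg passed with that block.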

Other observations

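Fcgr2b, Fcgr4 and Fcgr3 follow each other on mouse chromosome 1 with no other protein-coding gene between them in the RefSeq table (GRCm38.p6), yet had 3 different orders of levels: Fcgr2b was highest with IL4, Fcgr4 highest with LPS plus IFNg, and Fcgr3 passed in no comparison. Beyond Fcgr3, Sdhc, a subunit of succinate dehydrogenase, had means of 9.17, 9.64 and 8.82 without stimulus, with IL4 and with LPS plus IFNg and did not pass (adjusted p from 0.0931 to 0.605). Fcrla, on the other side, was at 0 in all stimulated libraries and in unstimulated replicate 1. It stood above 0 only in unstimulated replicate 2 (2.71) and did not pass. These neighbours were looked up after the members' values were seen.

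Fcgrt lies close to the ribosomal protein gene Rpl13a on chromosome 7. Rpl13a fell with LPS plus IFNg by 1.62 (adjusted p = 0.0326), beside the Fcgrt difference of -2.40 that did not pass. On its other side Nosip had means of 5.90, 5.76 and 6.39 and did not pass. The genes closest to Fcgrt over the 8 libraries were Spice1 (root mean square difference 0.47), Rps23 (0.56) and Ift27 (0.58). Of these Rps23, another ribosomal protein gene, had means of 11.49, 10.52 and 8.90 without stimulus, with IL4 and with LPS plus IFNg. For Fcer1g the closest was Mat2b (0.14) and for Fcgr3 Plxnb2 (0.12), a plexin, with means of 8.24, 7.43 and 7.75.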
